A study of Mus musculus with 4 samples.

Results

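The genes described here are the 3 Onecut transcription factor genes (Onecut1, Onecut2 and Onecut3) and 4 genes grouped with them (Prox1, Megf11, Calb1 and Calb2). The 4 are read here as genes of horizontal cells, the lateral interneurons of the outer retina. Of these, Calb2 is best known from ganglion and amacrine cells. The 7 genes were chosen by name, with earlier results of these data known. They are 7 of the 25239 gene IDs in the deposited tables, and each stood on 1 row of every table. The levels come from RNA sequencing of poly(A)-selected RNA from whole dissected mouse retina at E13.5 (E, embryonic day). There were 2 libraries of genotype control and 2 of genotype Isl1cKO, which the series describes as retina without Isl1, a LIM-homeodomain factor gene. The strain, the Cre driver, the deleted exons and the alleles of the controls are not given in the sources used here. Whether the libraries of a group came from different animals or litters is not given either, so p-values measure only the spread between these libraries. Levels are TPM, transcript units that sum to 1000000 in each library. They are scaled to transcript length and so can be compared between genes.

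Onecut proteins bind DNA through a single cut domain and a homeodomain. In the embryonic retina Onecut1 and Onecut2 are made by precursors of horizontal cells, ganglion cells and cones, and horizontal cells do not form normally without them. The homeodomain protein Prox1 is also needed for horizontal cells, and it is made by lens fibre cells and lymphatic endothelium too. Megf11 is a transmembrane protein with EGF-like repeats that spaces horizontal cells into an even mosaic. Calb1 encodes calbindin and Calb2 calretinin, related calcium-binding proteins with EF-hands. Calbindin labels horizontal cells of the mouse, and calretinin is best known from ganglion and amacrine cells.

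Because the Onecut genes are paralogs, their coding sequences in GENCODE M21 (GRCm38, the assembly that mm10 denotes) were compared to see how far reads could be shared. Over aligned coding bases, Onecut1 and Onecut3 were 67.7% identical, Onecut1 and Onecut2 74.5%, and Onecut2 and Onecut3 69.0%. The longest run without a difference was 50 bases between Onecut1 and Onecut3, 38 between Onecut2 and Onecut3 and 26 between Onecut1 and Onecut2. The stretch around the longest run is shown because Onecut1 and Onecut3 reads are hardest to tell apart there. It forms the last 100 coding bases of exon 1 of Onecut1 (chr9:74863302-74863401, plus strand) and lies in exon 1 of Onecut3 (chr10:80496091-80496190, plus strand). Capitals mark the bases that differ, and 91 of 100 were identical.
Onecut1: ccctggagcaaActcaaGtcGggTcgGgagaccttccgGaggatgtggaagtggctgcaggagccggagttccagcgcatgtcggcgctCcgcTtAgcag
Onecut3: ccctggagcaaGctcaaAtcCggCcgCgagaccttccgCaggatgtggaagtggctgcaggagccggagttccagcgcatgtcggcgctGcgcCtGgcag

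Calb1 and Calb2 were 65.7% identical over aligned coding bases, and their longest shared run was 12 bases. The stretch around that run is shown because calbindin and calretinin transcripts stood on opposite sides of the control level. It lies in exon 4 of Calb1 (chr4:15895441-15895521, plus strand) and exon 4 of Calb2 (chr8:110152630-110152710, minus strand), with 40 of 81 bases identical and the others in capitals.
Calb1: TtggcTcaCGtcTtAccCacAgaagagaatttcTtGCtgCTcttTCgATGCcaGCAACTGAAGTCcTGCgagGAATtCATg
Calb2: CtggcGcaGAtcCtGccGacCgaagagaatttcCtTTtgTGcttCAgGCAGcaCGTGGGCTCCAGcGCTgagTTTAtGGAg

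Aligned sequence per library, derived from the ratio of coverage to FPKM (fragments scaled to transcript length and library size), was 12.63 to 14.26 gigabases, lowest in Isl1cKO replicate 2. That library also lay farthest out on the first principal component, at 30.5, against 7.13 for Isl1cKO replicate 1 and -21.8 and -15.8 for control replicates 1 and 2. The targeted gene, Isl1, was measured at 242 TPM (replicate 1) and 201 TPM (replicate 2) in control, and at 321 TPM (replicate 1) and 223 TPM (replicate 2) in Isl1cKO, and limma gave it an adjusted p-value of 0.683. A value for the whole gene also counts exons outside a deleted part and so checks no label. The directions below therefore rest on the labels, and "Isl1cKO" means the libraries so labelled. The summed level of 22 ganglion cell genes was 1638 to 4253 TPM over the 4 libraries and lower in both Isl1cKO libraries.

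Among the 7 genes, Onecut3 was higher in both Isl1cKO libraries by about the factor by which Calb2 was lower, while the Isl1cKO values of Onecut1 and Prox1 lay on both sides of the controls. None of the 7 passed an adjusted p-value of 0.05 in limma fitted over all 13984 tested genes, where 0.493% of genes passed. Of all tested genes 0.0286% (4) passed as higher and 0.465% (65) as lower. Without adjustment, 2 of the 7 had p-values under 0.05, Onecut3 and Calb2, against 12.1% of all tested genes. The share over all tested genes was 3.20% on the higher side, where Onecut3 lay, and 8.92% on the lower side, where Calb2 lay. The groups did not overlap in 4 of the 7 genes, against 44.9% of all tested genes. Of these, 3 were higher in Isl1cKO (Onecut2, Onecut3 and Calb1) and 1 was lower (Calb2), where 14.9% and 30.0% of all tested genes lay without overlap in these directions. Over all tested genes, 63.8% had a log2 difference below 0 (lower in Isl1cKO) and 36.2% one above 0, which is the background for such counts below. All 7 genes met the minimum level for testing, 1 TPM in at least 2 libraries. Calb1 met it only through the Isl1cKO libraries, where it was higher, and Megf11 through 1 library of each group.

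**Figure D1:**
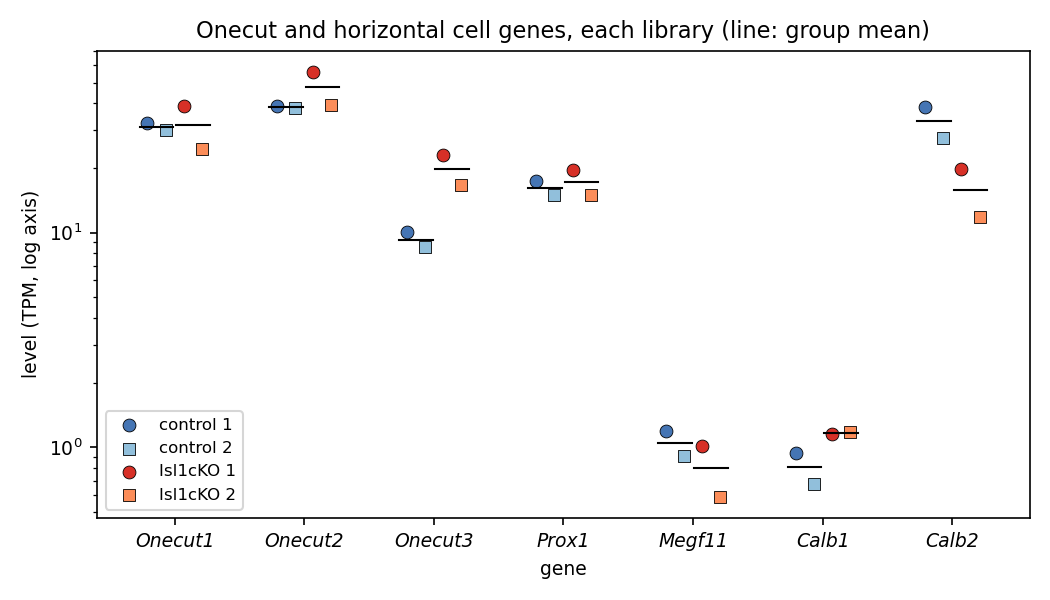
Level of each of the 7 genes in each library (y axis, TPM on a log scale; x axis, gene), with a short line at each group mean. Onecut3 is above both controls in both Isl1cKO libraries, Calb2 is below both controls, and Megf11 and Calb1 lie near 1 TPM.

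Onecut1, which is required for horizontal cells, spans chromosome 9 from 74861921 to 74889647 on the plus strand. It was measured at 32.3 TPM (replicate 1) and 30.0 TPM (replicate 2) in control, and at 38.7 TPM (replicate 1) and 24.6 TPM (replicate 2) in Isl1cKO. The Isl1cKO values lay on either side of the controls, with means of 31.1 ± 1.61 TPM for control and 31.6 ± 9.98 TPM for Isl1cKO (SD, n = 2). The log2 difference (Isl1cKO minus control, on the log2(TPM + 1) scale used throughout) was -0.01 with a 95% interval from -0.62 to 0.60 and an adjusted p-value of 0.990 in limma. Its sign had no stable direction: it was 0.04 under median-ratio and upper-quartile scaling and with FPKM, -0.33 when Isl1cKO replicate 1 was left out and 0.30 when Isl1cKO replicate 2 was.

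Onecut2, the paralog that acts alongside Onecut1, lies on chromosome 18 from 64340364 to 64398488 on the plus strand. It was at 38.9 and 38.1 TPM in the control pair against 56.0 and 39.3 TPM in the Isl1cKO pair (replicate 1, then 2). Both Isl1cKO values were above both controls, but that of replicate 2 by less than the controls differed from each other. The log2 difference was 0.28 with a 95% interval from -0.21 to 0.77 and an adjusted p-value of 0.636 in limma. Leaving out Isl1cKO replicate 1 gave 0.03, and leaving out Isl1cKO replicate 2 gave 0.53. A difference at least as high was seen in 4.40% of all tested genes.

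Onecut3, the least abundant of the 3 paralogs in control retina, lies on chromosome 10 from 80494906 to 80517260 on the plus strand. It was measured at 10.03 TPM (replicate 1) and 8.53 TPM (replicate 2) in control, and at 23.0 TPM (replicate 1) and 16.6 TPM (replicate 2) in Isl1cKO. The lower Isl1cKO value exceeded the higher control value by far more than the controls differed from each other. The means were 9.28 ± 1.06 TPM and 19.8 ± 4.53 TPM (SD, n = 2), a ratio of 2.13. The log2 difference was 1.003 (SE 0.18) with a 95% interval from 0.52 to 1.49, an unadjusted p-value of 0.00382 and an adjusted p-value of 0.171 in limma. Only 23 of the 13984 tested genes, Onecut3 included (0.164%), had a log2 difference at least as high. Without 1 library it ranged from 0.78 (without Isl1cKO replicate 1) to 1.23 (without Isl1cKO replicate 2).

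**Figure D2:**
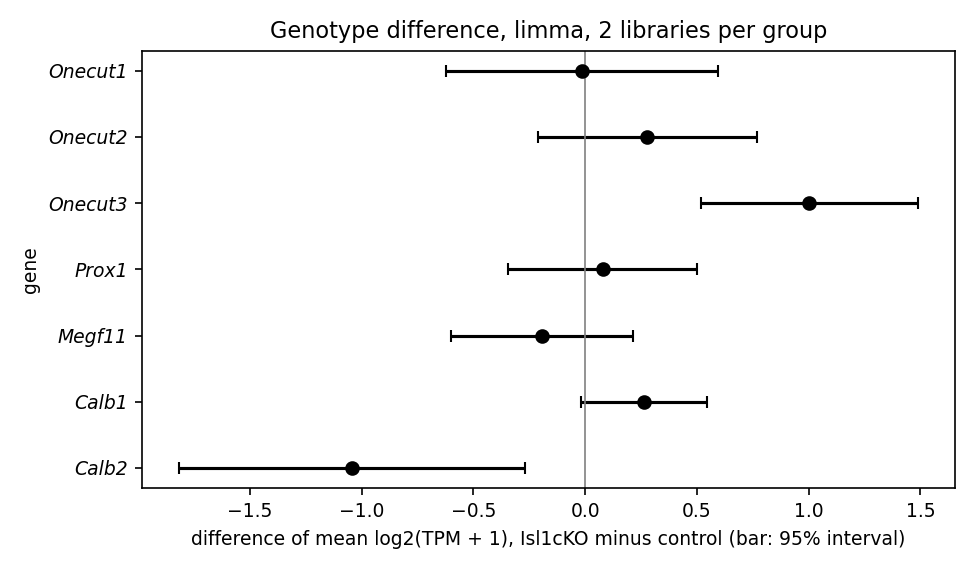
Difference of mean log2(TPM + 1), Isl1cKO minus control (x axis), for each of the 7 genes (y axis), with 95% intervals from limma. The intervals of Onecut3 (0.52 to 1.49) and Calb2 (-1.82 to -0.27) lie to one side of 0 before any adjustment for the number of genes tested, and the other 5 include 0.

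The Onecut genes were next read as a family, since shares within a library do not depend on how libraries are scaled. Their summed level was 81.2 and 76.6 TPM in control replicates 1 and 2 and 118 and 80.4 TPM in Isl1cKO replicates 1 and 2. The Isl1cKO value of replicate 2 lay between the controls, so the groups overlapped. The log2 difference of the sum was 0.30, with a two-sided p-value of 0.667 in the exact permutation test, whose smallest possible value with 2 against 2 libraries is 0.333. Leaving out Isl1cKO replicate 1 gave 0.03, and leaving out Isl1cKO replicate 2 gave 0.58.

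Onecut3 made up 12.3% and 11.1% of the summed Onecut level in the controls and 19.5% and 20.6% in Isl1cKO replicates 1 and 2. These shares differed by 8.35 percentage points between the groups, against SDs of 0.858 and 0.771 points within control and Isl1cKO (n = 2). The share of Onecut1 was 39.7% and 39.2% in the controls and 32.9% and 30.5% in Isl1cKO. That of Onecut2 was 47.9% and 49.7% in the controls and 47.6% and 48.8% in Isl1cKO, so its groups overlapped. Onecut2 was thus the most abundant paralog in every library, and Onecut3 the least. The ratio of Onecut3 to Onecut1 was 0.311 and 0.284 in the controls and 0.595 and 0.676 in Isl1cKO. The shares in Isl1cKO replicates 1 and 2 lay close together although their summed levels differed. These shares were chosen for description after the values had been seen, and the exact permutation test of 2 against 2 libraries could not go below 0.333 for them.

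**Figure D3:**
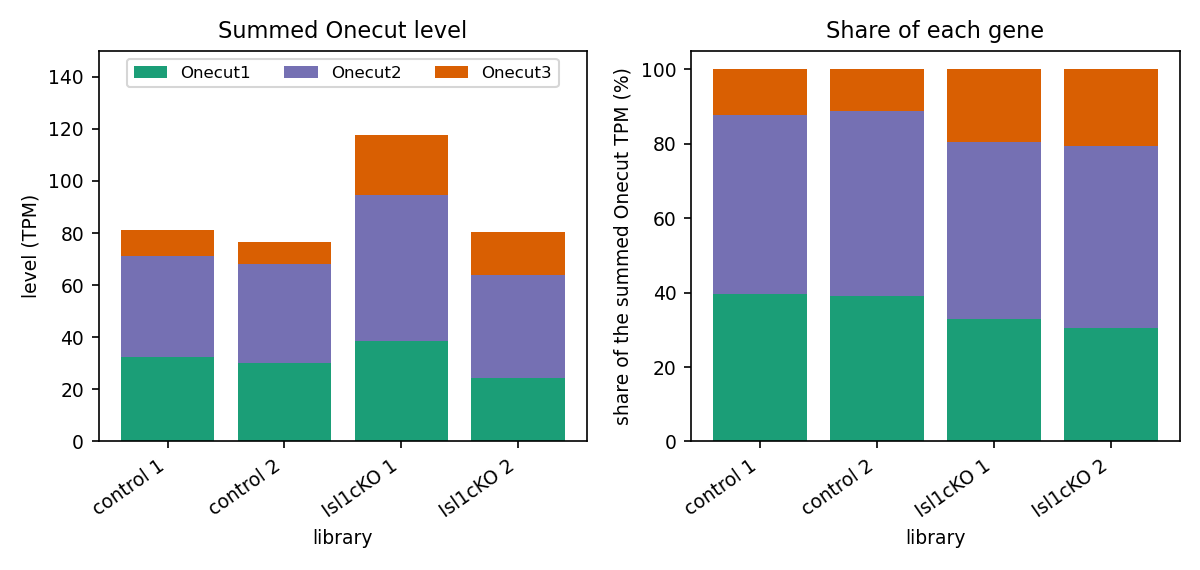
Left, summed level of Onecut1, Onecut2 and Onecut3 in each library (y axis, TPM; stacked bars by gene). Right, the same as a share of the sum (y axis, percent). Onecut3 takes 11.1% to 12.3% in the controls and 19.5% to 20.6% in Isl1cKO, while the summed level overlaps between groups.

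Prox1, a homeodomain factor that drives horizontal cell formation, spans chromosome 1 from 190118035 to 190170827 on the minus strand. It was measured at 17.4 TPM (replicate 1) and 15.0 TPM (replicate 2) in control, and at 19.5 TPM (replicate 1) and 14.9 TPM (replicate 2) in Isl1cKO. The Isl1cKO values enclosed both controls. The log2 difference was 0.08 with a 95% interval from -0.35 to 0.50 and an adjusted p-value of 0.882 in limma, and it turned to -0.02 when control replicate 2 was left out and to -0.11 when Isl1cKO replicate 1 was. Lens and lymphatic endothelium also make Prox1, so markers of both were read beside it. Of 20 lens markers 17 were tested, 16 of these were lower in Isl1cKO and 12 passed as lower in limma. Their summed level was 287 to 348 TPM in the controls and 18.1 to 23.8 TPM in Isl1cKO, where Crygf and Lim2, at 1.04 to 4.85 TPM in the controls, were listed at 0 in both libraries. Of 9 endothelial and lymphatic markers 3 were tested and none passed. The summed level of the 9 was 92.7 to 110 TPM in the controls and 85.9 to 86.2 TPM in Isl1cKO. Most of it came from Kdr (55.5 to 69.0 TPM) and Pdpn (27.2 to 32.5 TPM), so the sum says little of the other markers. Cdh5, too low to test, was at 2.55 and 0.357 TPM in the control pair against 0.211 and 0 TPM in the Isl1cKO pair. Pecam1, also untested, was at 2.45 and 0.592 TPM against 0.681 and 0.296 TPM, with overlapping groups. The part of lens or endothelial RNA in the level of Prox1 was not tested. An uncharacterized gene on the opposite strand, LOC102632463, overlaps Prox1 and was at 1.62 and 1.77 TPM in the control pair against 3.45 and 2.24 TPM in the Isl1cKO pair. Whether the authors assigned reads by strand is not given in the sources used here, so reads of the overlap could stand under either gene.

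Megf11, the mosaic-spacing receptor, spans chromosome 9 from 64385626 to 64709205 on the plus strand. It was at 1.19 and 0.912 TPM in the control pair against 1.02 and 0.590 TPM in the Isl1cKO pair (replicate 1, then 2), so the groups overlapped. These values rest on a mean coverage of 2.65 to 5.55 reads per base. The log2 difference was -0.19 with a 95% interval from -0.60 to 0.22 and an adjusted p-value of 0.6996 in limma. Leaving out Isl1cKO replicate 1 gave -0.36, and leaving out Isl1cKO replicate 2 gave -0.02. Megf10, its closest relative and a partner in mosaic spacing, was at 2.83 and 2.34 TPM in the control pair against 1.85 and 1.45 TPM in the Isl1cKO pair. The groups of Megf10 did not overlap, and its log2 difference of -0.44 had an adjusted p-value of 0.311 in limma. Of the 7 MEGF family genes and relatives other than Megf11, 5 were tested and none passed.

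Calb1 (chromosome 4, 15881264 to 15906709, plus strand), which encodes calbindin, was at 0.945 and 0.672 TPM in the control pair against 1.15 and 1.18 TPM in the Isl1cKO pair. Both Isl1cKO values were above both controls, at a mean coverage of 3.32 to 6.15 reads per base. The log2 difference was 0.26 with a 95% interval from -0.02 to 0.54 and an adjusted p-value of 0.440 in limma. At this level the scale understates the difference, and the ratio of the means was 1.44. With a pseudocount of 0.1 the log2 difference was 0.49. It was 0.15 without control replicate 2.

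Calb2 (chromosome 8, 110142526 to 110168212, minus strand), which encodes calretinin, was measured at 38.4 TPM (replicate 1) and 27.6 TPM (replicate 2) in control, and at 19.8 TPM (replicate 1) and 11.8 TPM (replicate 2) in Isl1cKO. Both Isl1cKO values were below both controls, and the gap between the groups was smaller than the gap between the controls. The means were 33.0 ± 7.63 TPM and 15.8 ± 5.64 TPM (SD, n = 2), a ratio of control to Isl1cKO of 2.09. The log2 difference was -1.04 (SE 0.29) with a 95% interval from -1.82 to -0.27, an unadjusted p-value of 0.0191 and an adjusted p-value of 0.306 in limma. A difference at least as low was seen in 1.31% of all tested genes. It was -0.69 without Isl1cKO replicate 2, a change of just over 1.5 times, and -1.39 without Isl1cKO replicate 1. In whole tissue, fewer cells that express a gene and less of its RNA per cell cannot be told apart.

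Calretinin is a ganglion and amacrine cell product as well, so the lists of these cells were set beside Calb2. Of 22 ganglion cell genes 21 were tested, 18 were lower in Isl1cKO and 3 passed as lower in limma (Irx2, Irx3 and Nell2). The 3 that were not lower were Pou4f2 (log2 difference 0.02, with overlapping groups), Dlx1 (0.32) and Dlx2 (0.22). The median log2 difference of the list was -1.12, against -0.05 over all tested genes. Its summed level was 3663 to 4253 TPM in the controls and 1638 to 2277 TPM in Isl1cKO, with Pou4f3 listed at 0 in Isl1cKO replicate 2. Of 14 amacrine cell genes 8 were tested, 5 were lower and none passed, with a median of -0.20. Leaving out Isl1cKO replicate 1 moved that median to -0.40, and leaving out Isl1cKO replicate 2 moved it to -0.07. The summed level of the amacrine list was 104 to 117 TPM in the controls and 85.0 to 109 TPM in Isl1cKO. Neurod6 and Chat were listed at 0 in control replicate 1 and in both Isl1cKO libraries. In control replicate 2 they were also near the floor, at 0.101 and 0.0230 TPM. The part of either cell type in the level of Calb2 was not tested.

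**Figure D4:**
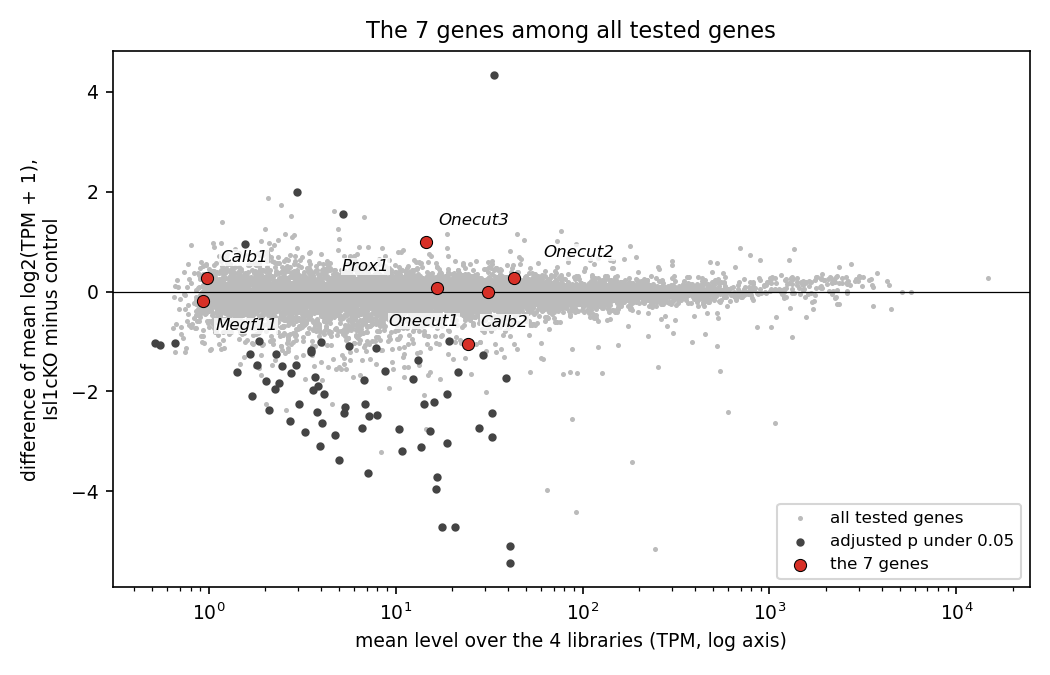
Difference of mean log2(TPM + 1), Isl1cKO minus control (y axis), against the mean level over the 4 libraries (x axis, TPM on a log scale) for the 13984 tested genes, with the 69 genes past the adjusted threshold in dark grey and the 7 genes in red. None of the 7 genes is among the 69, and Onecut3 and Calb2 lie farthest from 0 of the 7.

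The order of levels also differed between the groups. In the controls it ran from Onecut2 (mean 38.5 TPM) through Calb2, Onecut1, Prox1 and Onecut3 to Megf11 and Calb1 (mean 0.808 TPM). The range of Calb2 there overlapped those of Onecut2 and Onecut1, and the ranges of Megf11 and Calb1 overlapped each other. In Isl1cKO it ran from Onecut2 (mean 47.6 TPM) through Onecut1, Onecut3, Prox1 and Calb2 to Calb1 and Megf11 (mean 0.805 TPM). The ranges of Onecut3, Prox1 and Calb2 all overlapped each other there. The ratio of Calb2 to Onecut1 was 1.19 and 0.920 in the controls and 0.511 and 0.480 in Isl1cKO, and that of Prox1 to Onecut1 ranged from 0.499 to 0.608 over all 4 libraries without separating the groups.

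Replicate 1 was above replicate 2 for all 7 genes in control and for 6 in Isl1cKO, the exception being Calb1. Over all tested genes replicate 1 was above replicate 2 in 57.2% in control and 61.5% in Isl1cKO, and in both groups in 35.9%, against 6 of the 7 genes. The summed ganglion cell list also stood higher in replicate 1 of each group, and the part of this difference in the values of the 7 genes was not tested.

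The other genes of the horizontal cell programme were read from a list of 14 genes in the tables, 5 of which are also on the amacrine list. Foxn4, Ptf1a and Prdm13 are tied to amacrine cells too, as described below, though not among these 5. The list therefore does not single out horizontal cells. Of the 14 genes, 9 were tested, and none passed in limma. There were 2 higher in Isl1cKO, Foxn4 and Rorb, and 7 of 9 lower, where 63.8% of all tested genes were lower. The median was -0.47, and it was -0.28 without control replicate 1. Foxn4, the progenitor factor that makes cells competent for horizontal and amacrine fates, was at 190 and 196 TPM in the control pair against 222 and 205 TPM in the Isl1cKO pair. Ptf1a, which acts downstream of Foxn4 to specify both fates, was at 17.9 and 10.5 TPM in the control pair against 10.8 and 8.67 TPM in the Isl1cKO pair, with overlapping groups.

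Tfap2a and Tfap2b, AP-2 factors of horizontal and amacrine cells, had the lowest log2 differences of this list, -0.63 and -0.62, with adjusted p-values of 0.397 and 0.442 in limma. Tfap2b was at 9.84 and 7.14 TPM in the control pair against 6.47 and 3.997 TPM in the Isl1cKO pair. Prdm13, a zinc-finger factor of amacrine cells, was at 28.8 and 19.9 TPM in the control pair against 19.3 and 13.6 TPM in the Isl1cKO pair, and Gad2, a GABA-synthesizing enzyme gene, had means of 12.4 TPM in control and 8.58 TPM in Isl1cKO. Lhx1, which places horizontal cells in their layer, was too low to test, at 0.785 and 0.435 TPM in the control pair against 0.575 and 0.161 TPM in the Isl1cKO pair. Pvalb was listed at 0 in both Isl1cKO libraries, and Gad1 in control replicate 1 and Isl1cKO replicate 2. Both were near the floor and not tested. Pvalb was at 0.292 and 0.320 TPM in the control pair, and Gad1 reached at most 0.0865 TPM in any library.

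The lists of neighbouring cell types and gene families were read in the same way. Of 9 tested photoreceptor precursor genes, which include cone genes active in Onecut-expressing precursors, 9 were lower, against 63.8% of all tested genes, and none passed. Their median was -0.45. It moved to -0.136 when Isl1cKO replicate 2 was dropped and to -0.748 when Isl1cKO replicate 1 was. The lowest value was that of Rxrg (-1.66, adjusted p-value 0.169 in limma). Of 15 progenitor and neurogenic factors 9 were higher, 6 lower and none passed, with a median of 0.08, which was -0.0085 without Isl1cKO replicate 2. The cut and prospero homeobox relatives Cux1, Cux2, Satb1 and Prox2 had log2 differences from -0.16 to 0.08, and none passed. Of 18 other EF-hand genes 11 were tested, 6 were higher, 5 lower and none passed, with the calmodulin gene Calm3 at -0.28 and Necab3 at 0.32. Values between -0.63 and 0.32 thus held for every tested gene of the horizontal cell and EF-hand lists, against 1.003 for Onecut3 and -1.04 for Calb2. This scale understates low genes, and Tfap2a, at -0.63, had means of 2.36 TPM in control and 1.15 TPM in Isl1cKO. That is about the factor by which Calb2 was lower (means of 33.0 and 15.8 TPM). Other lists reached below Calb2, with Rxrg at -1.66 and a median of -1.12 for the ganglion cell list.

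**Figure D5:**
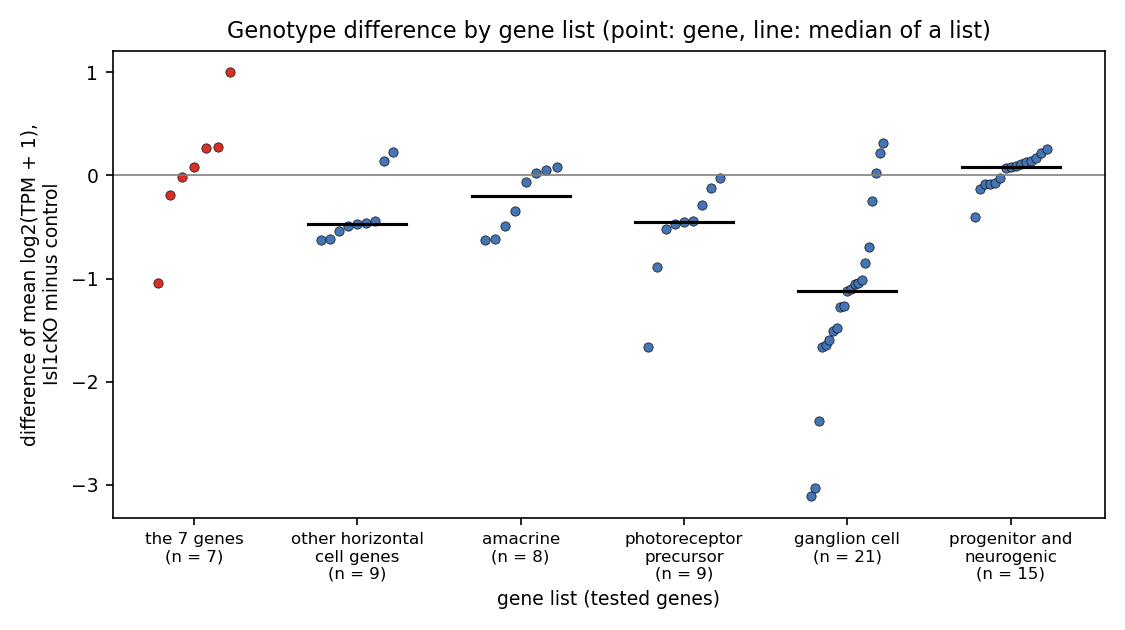
Difference of mean log2(TPM + 1), Isl1cKO minus control (y axis), for each tested gene of 6 lists (x axis), with a line at the median of each list other than the 7 genes. The 7 genes span -1.04 to 1.003, 7 of the 9 other horizontal cell genes lie below 0, as do 63.8% of all tested genes, and the ganglion cell list has the lowest median, -1.12. The horizontal cell and amacrine lists share genes.

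The genes most like Onecut1 and Onecut3 over the 4 libraries were found as those with the smallest distance in centred log2(TPM + 1). For Onecut1 they were Atad3aos, Dcc (a netrin receptor gene) and Ccdc9b. Dcc was at 57.2 and 51.3 TPM in the control pair against 65.5 and 43.0 TPM in the Isl1cKO pair, at a distance of 0.05. For Onecut3 they were Slc30a3 (a zinc transporter gene), Opcml (a cell adhesion gene) and Sema3e (a secreted semaphorin gene). Slc30a3 was at 1.0001 and 0.795 TPM in the control pair against 3.55 and 2.25 TPM in the Isl1cKO pair, at a distance of 0.05. Sema3e was at 1.40 and 1.36 TPM in the control pair against 5.26 and 3.41 TPM in the Isl1cKO pair, at a distance of 0.20. Only 4 libraries enter this measure. It understates low genes, and Slc30a3, Opcml and Sema3e were low in the controls. In plain TPM they were higher in Isl1cKO by a larger factor than Onecut3, whose ratio of means was 2.13. Their likeness to Onecut3 therefore holds only on the log2(TPM + 1) scale.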

How the data were processed

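Whole retina at embryonic day 13.5 was sequenced in 2 control and 2 Isl1cKO libraries, strand-specific and poly(A)-selected per the labels' protocols. Per the submitters' processing notes, Trimmomatic, FastQC, HISAT2, SAMtools, StringTie and DESeq2 were used with build mm10; versions, roles and annotation are not given in the sources used here. Each library has its own table. Per the file headers, the deposited coverage is the mean signal per base of a gene, the deposited FPKM is scaled to transcript length and library size, and the deposited TPM sums to 1000000 per library. These are not counts, so the count test that had been planned was replaced by its stated fallback, limma.

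TPM were summed over repeated rows of a gene ID (171 to 234 IDs per library, none of the 7 genes). Genes with at least 1 TPM in at least 2 libraries (13984) were fitted as log2(TPM + 1) with lmFit and eBayes of limma 3.58.1 (R 4.3.3), genotype as the only term, and Benjamini-Hochberg adjustment over all of them, with a threshold of 0.05. Fold changes on this scale understate low genes. The fit was tested on simulated data. No set test was run; lists are described by counts and medians. Depth in reads is unknown: the tables hold coverage and no counts, so no counting interval was computed.

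The 7 genes, the gene lists and the naming rule were chosen with earlier results of these data known. From each list, the genes of largest absolute difference and those past the threshold could be named. Lhx1, Ptf1a, Foxn4, Megf10, Rorb, Lim2, Pvalb, Gad1, Neurod6, Chat, Cdh5, Pecam1, Pou4f2, Dlx1 and Dlx2 were named after their values were seen. Another gene of the cut and prospero list is not reported here and was left out of its values. Coding sequences were the longest complete ones per gene in GENCODE M21, aligned globally.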

Additional observations from a re-analysis of the deposited data

How the results depend on the processing

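Among the 7 genes, the sign changed for 2, Onecut1 and Prox1. Onecut1 (-0.01) became 0.0417 with median-ratio scaling, 0.0447 with upper-quartile scaling and 0.0353 with FPKM, and -0.33 to 0.30 on leaving out each library (0.0384 without control replicate 1). Prox1 (0.08) was -0.11 to 0.26 on leaving out each library, below 0 without control replicate 2 or Isl1cKO replicate 1. Megf11 and Calb1 could not be tested at 5 TPM or with FPKM, where they miss the minimum. Over the alternatives with all libraries the log2 difference of Onecut3 ranged from 0.94 to 1.07 and that of Calb2 from -1.09 to -0.92, with adjusted p-values in limma of 0.0270 to 0.318 and 0.0254 to 0.419. Each lowest p came from the replicate block. The replicate numbers share no litter or day in the labels, so samples were taken to share only a number. Deviations from the group means correlated at 0.126 across genes. With 2 libraries per group this cannot settle whether libraries of the same number share a batch. With the replicate block Onecut3 (1.003, adjusted p-value 0.0270) and Calb2 (-1.04, 0.0254) passed in limma, and the number of genes passing was 265 in place of 69. That number was 44 with a pseudocount of 0.1, 15 with no filter, 127 with FPKM, 110 with a mean-variance trend and 45 without lens and red blood cell genes. On leaving out each library it was 10 to 37, where the lone library is assumed to vary like the other group, and none of the 7 passed. More genes were tested with no filter, and leaving out a library left fewer libraries, but the cause of these changes was not tested.

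The list medians moved as follows. Under median-ratio scaling, which raised the median of all genes by 0.05, they were 0.0593 for EF-hand genes, 0.134 for progenitor and neurogenic factors and -0.102 for endothelium. With no filter they were -0.0610 for EF-hand genes, -0.0232 for MEGF relatives, -2.21 for lens and -0.346 for endothelium. On leaving out each library they ranged from -0.0557 to -0.00129 for EF-hand genes, -0.281 to -0.0316 for MEGF relatives, -0.397 to -0.0720 for amacrine cells and -0.00850 to 0.154 for progenitor and neurogenic factors. They ranged from -2.82 to -2.44 for lens, -0.282 to -0.142 for endothelium, -0.439 to -0.117 for pigment epithelium (main -0.35) and -0.66 to -0.28 for other horizontal cell genes and -0.748 to -0.136 for photoreceptor precursor genes. The share of Onecut3 in the Onecut sum, an alternative chosen after seeing the data, differed by 7.74 to 8.96 points.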

Other observations

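Markers of other tissues were read in the same way, and none of those described here passed in limma. Of 9 red blood cell markers 8 were tested, 8 were lower with groups that did not overlap, with a median of -2.52 and summed levels of 2903 and 4168 TPM in control replicates 1 and 2 and of 1418 and 204 TPM in Isl1cKO replicates 1 and 2. Leaving out Isl1cKO replicate 2 gave a median of -1.19, and leaving out Isl1cKO replicate 1 gave -3.85. Of 8 tested pigment epithelium markers 7 had a log2 difference below 0, against 63.8% of all tested genes, and the groups overlapped in 4. Of 4 tested periocular mesenchyme markers 4 had a log2 difference below 0, and the groups overlapped in 3. The median of the pigment epithelium list was -0.35, and it was -0.117 without Isl1cKO replicate 2. The median of the mesenchyme list was -0.34, and it was 0.00282 without Isl1cKO replicate 2.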
